A study of Mus musculus with 8 samples.

Results

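The genes described here are 35 that encode the proteins which modify, fold, export, trim and crosslink fibrillar collagen, taken by symbol from a named set out of the 27133 genes in the table. All 35 were found, and all 35 had counts high enough to be tested. They comprise 4 prolyl 4-hydroxylase subunits, 5 lysyl hydroxylases and hydroxylysine galactosyltransferases, 6 members of the prolyl 3-hydroxylase complexes, 4 chaperones and peptidyl-prolyl isomerases, 7 propeptide proteases and their enhancers, 5 lysyl oxidases, and 4 genes of collagen export and the endoplasmic reticulum (ER).

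RNA was sequenced from the parietal bone, a flat bone of the skull roof, of C57BL6J pups that carried no transgene named in the labels. The pups of 4 libraries (isotype 2, 3, 4 and 5) received an isotype antibody as control, and those of the other 4 (anti-CSF1R 7, 8, 9 and 10) received a blocking antibody against CSF1R, the receptor through which CSF1 and IL-34 maintain macrophages and osteoclasts. Both groups were dosed transcranially on postnatal days 2, 4 and 6, and both were perfused before the bone was taken on postnatal day 9. Whether a library stands for 1 pup is not stated in the labels, and p-values then measure only the spread between these libraries, which may be technical.

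Fibrillar procollagen is made in the ER, where prolyl 4-hydroxylation lets the triple helix hold at body temperature and lysyl hydroxylation prepares residues for sugars and crosslinks. Chaperones such as HSP47 (Serpinh1) bind the folded helix, the molecule is exported through a COPII pathway that uses TANGO1 (Mia3), and extracellular proteases remove the propeptides before lysyl oxidases start the covalent crosslinks. In bone, whose organic matrix is mostly type I collagen, loss of many of these genes (Crtap, P3h1, Ppib, Serpinh1, Fkbp10, Plod2, Bmp1, Tmem38b, Creb3l1, Kdelr2) is known to cause brittle bone disease.

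Each library held between 57.5 M and 69.1 M counts. Levels are given as CPM, counts per M of the library size after multiplying that size by its TMM normalization factor. Csf1r itself was 361 ± 152 CPM (mean ± SD, n = 4) in isotype and 57.0 ± 11.8 CPM (n = 4) in anti-CSF1R. The log2 difference (anti-CSF1R minus isotype) was -2.66 with an SE of 0.32. Its adjusted p was 0.0156 (edgeR quasi-likelihood test, Benjamini-Hochberg over 17028 genes, threshold 0.05). Libraries isotype 3 and 4 stood apart from the rest. Their expression profiles had a Spearman correlation across genes of 0.916 to 0.943 with the other 6 libraries, which correlated with each other at 0.986 to 0.997. GC-rich transcripts were over-represented in them: across 16005 genes with an annotated transcript, the GC content of the longest transcript and the log2 difference between isotype 3 and 4 and isotype 2 and 5 had a Spearman correlation of 0.69, a description in which the points share the same 4 libraries. Differences are therefore given with all 8 libraries and again with isotype 2 and 5 as the only controls. No label sets isotype 3 and 4 apart, and they were left out because of these same counts. Leaving out the libraries farthest from the rest can by itself shrink differences and narrow intervals. The differences, intervals and p-values against isotype 2 and 5 are therefore descriptions. Where a pair of differences is joined by 'then', the second is the one against isotype 2 and 5. The osteoblast markers were present in every library, with a summed level of 6873 to 8472 CPM in isotype and 7018 to 8235 CPM in anti-CSF1R. That sum covers a split: over all 8 libraries 5 of the 9 were lower and 4 higher, with 0 past the threshold. Runx2 was higher without overlap (163.5 to 320 CPM in isotype, 333 to 390 CPM in anti-CSF1R). Osteoclast markers summed to 5557 to 13239 CPM and 2040 to 2784 CPM, and macrophage markers to 436 to 939 CPM and 71.5 to 129 CPM. All 8 osteoclast and all 8 macrophage markers were lower in every antibody library than in every isotype library. Of these, 6 of osteoclasts and 7 of macrophages passed the threshold. Muscle markers summed to 4.24 to 64.3 CPM and 4.27 to 5.15 CPM, and erythroid markers to 321 to 957 CPM and 253 to 671 CPM, with no call. No marker on these lists was at 0 in all libraries. In bulk bone, fewer cells of a type and less RNA per cell cannot be told apart.

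Promoter sequences were available for 22 of the 35 genes, as 25 start sites in a RefSeq-derived table of GRCm38.p6, and 4 are shown. Serpinh1 and P4hb are the most abundant ER genes per length and were high in isotype 3 and 4, Mia3 was low in those libraries, and Pcolce2 is a gene whose groups did not overlap. Each line holds the 250 bases before the annotated start, 5′ to 3′ in the direction of transcription. Capitals mark matches on either strand to the TATA box as TATAAA, the CCAAT box by its own letters, the cAMP response element as TGACGT, the hypoxia response core as ACGTG, the heat shock element as GAANNTTC and the GC box as GGGCGG. The intervals are chr7:99353240-99353489 on the minus strand for Serpinh1, chr11:120573254-120573503 on the minus strand for P4hb, chr1:183369566-183369815 on the minus strand for Mia3 and chr9:95637378-95637627 on the plus strand for Pcolce2.
Serpinh1: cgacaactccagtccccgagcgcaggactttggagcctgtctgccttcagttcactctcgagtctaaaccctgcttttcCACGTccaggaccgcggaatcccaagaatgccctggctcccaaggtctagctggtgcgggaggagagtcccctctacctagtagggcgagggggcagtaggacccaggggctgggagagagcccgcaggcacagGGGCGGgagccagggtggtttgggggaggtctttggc
P4hb: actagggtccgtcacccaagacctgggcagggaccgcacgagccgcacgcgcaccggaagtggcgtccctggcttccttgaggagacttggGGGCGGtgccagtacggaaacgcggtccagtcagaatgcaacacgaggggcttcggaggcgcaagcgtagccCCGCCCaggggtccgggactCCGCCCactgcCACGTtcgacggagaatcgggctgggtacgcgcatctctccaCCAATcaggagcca
Mia3: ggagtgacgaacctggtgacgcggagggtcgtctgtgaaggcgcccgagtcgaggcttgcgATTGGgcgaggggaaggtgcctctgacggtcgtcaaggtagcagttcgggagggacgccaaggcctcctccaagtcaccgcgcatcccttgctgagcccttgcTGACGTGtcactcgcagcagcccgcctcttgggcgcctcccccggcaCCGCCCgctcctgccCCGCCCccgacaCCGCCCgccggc
Pcolce2: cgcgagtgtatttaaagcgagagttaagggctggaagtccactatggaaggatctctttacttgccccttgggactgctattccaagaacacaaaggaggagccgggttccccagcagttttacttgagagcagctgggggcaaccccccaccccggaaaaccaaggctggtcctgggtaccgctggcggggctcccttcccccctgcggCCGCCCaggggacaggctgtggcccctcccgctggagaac

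A GC box stood in 18 of the 25 promoters (72%), against 32.7% of all 32851 promoters of the same length in the table. The hypoxia response core was in 9 of 25 (36%) against 16.6%, the CCAAT box in 8 (32%) against 33.8%, the cAMP response element in 5 (20%) against 6.47%, the TATA box in 2 (8%) against 12.4% and the heat shock element in 1 (4%) against 6.69%. The longer ER stress element, a CCAAT box followed after 9 bases by CCACG, was in 0 of 25 and in 0.113% of all promoters. The median GC content was 61.2% for these promoters and 52.4% for all, and the shares were not matched on GC content. The windows of the Colgalt1 start sites overlap, so the same cAMP response element and the same GC box are counted in both. In the Mia3 promoter the cAMP response element and the hypoxia response core share bases. A match is a description of letters and not a measured binding site.

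With all 8 libraries, 0 of the 35 genes passed the threshold in edgeR, where 0.846% of all tested genes did (144 of 17028, with 0.822% lower and 0.0235% higher with the antibody). The smallest adjusted p was 0.156, for Pcolce2. At an unadjusted p under 0.05, 12 of the 35 were lower (34.3%, against 12.6% of all genes) and 0 were higher (against 5.26%), in a comparison where 17.9% of all genes were under that level in either direction. These 12 were P4ha2, P4hb, Plod1, Plod3, P3h1, P3h3, Crtap, Serpinh1, Colgalt1, Pcolce, Pcolce2 and Creb3l1. DESeq2 called 1 of the 35, Pcolce2, where it called 4.56% of all genes, limma-voom called 0, and edgeR with an offset for GC content and length called 0, where it called 2.89% of all genes. The 35 log2 differences ran from -0.82 to 0.54 with a median of -0.21, 24 of them below 0, while the median over all tested genes was 0.03. With the offset for GC content and length their median was -0.18 (all genes 0.017), and 25 of the 35 were below 0 (all genes 7713 of 16005). The 12 genes named above then ran from -1.19 (Pcolce2) to -0.15 (Creb3l1).

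Isotype 3 and 4 differed from isotype 2 and 5 in most of the 35 genes. In 20 of the 35 genes (57.1%) both of them lay above both isotype 2 and isotype 5, against 37.5% of all genes, and in 7 (20%, against 41.1%) both lay below. With isotype 2 and 5 as the only controls the median of the 35 differences was -0.07 (all genes 0.0024), their median size was 0.12 (all genes 0.11) instead of 0.51 (all genes 0.39), and 11 of the 12 genes named above moved to between -0.17 and -0.06. Pcolce2 remained at -0.62. The 95% confidence interval of the difference lay within 1 log2 unit either side of 0 for 34 of 35 genes (all genes 13880 of 17028). It lay within 0.5 for 28 (all genes 10450). Over all 8 libraries 17 of the 35 were within 1 unit (all genes 8573). Against isotype 2 and 5, 2 of the 35 passed the threshold, Loxl1 and Loxl3, both higher, where 3.06% of 17538 tested genes were called, 0.679% higher and 2.38% lower. At an unadjusted p under 0.05 there were 7 (20%, against 15.1%), namely Plod1, Plod3, P3h2, Pcolce2 and Tmem38b lower (all genes 8.71%) and Loxl1 and Loxl3 higher (all genes 6.4%).

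**Figure D1:**
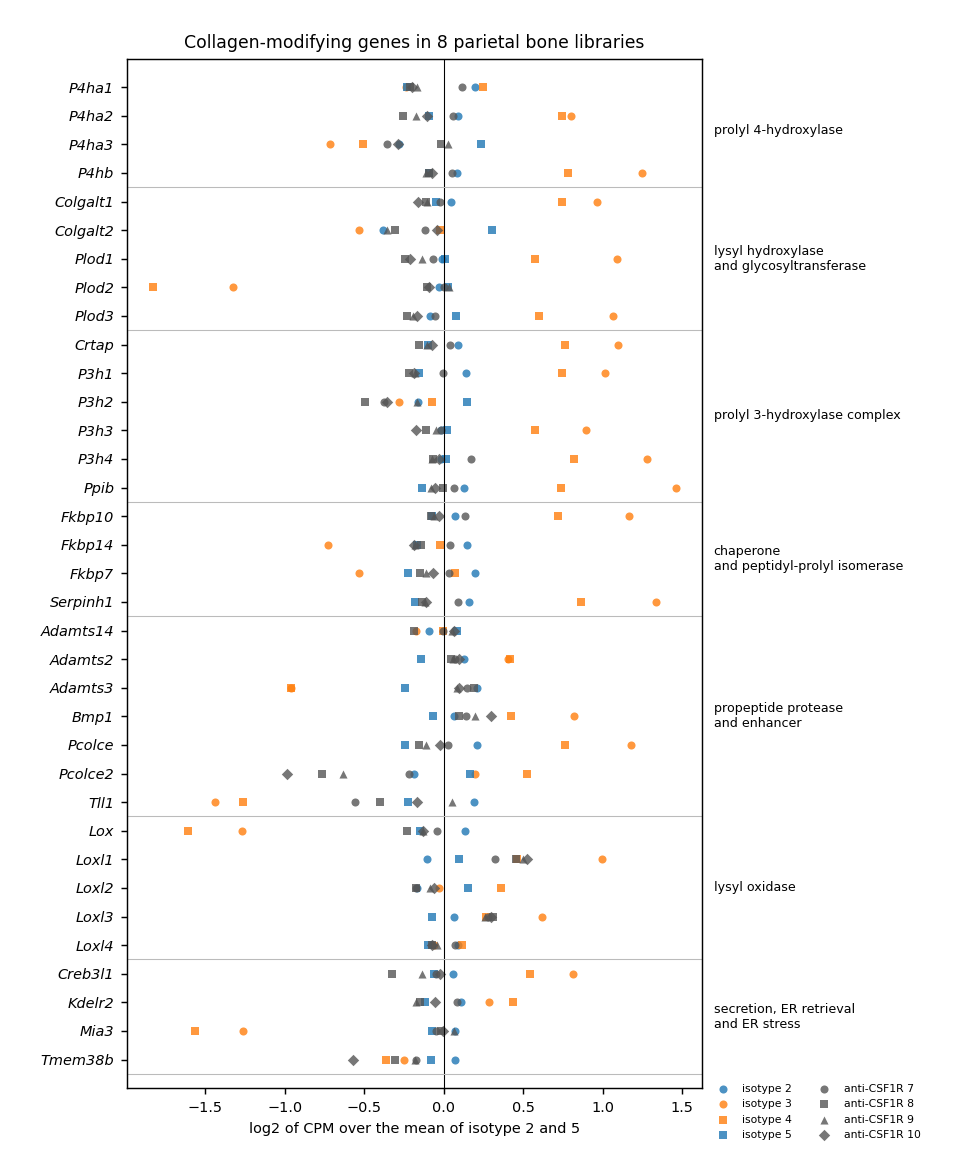
Log2 of the CPM over the mean of isotype 2 and 5 (horizontal) for the 35 genes in rows by role, with 1 symbol per library, blue for isotype 2 and 5, orange for isotype 3 and 4 and grey for anti-CSF1R. The orange symbols lie to the right of the others for Serpinh1, P4hb and Ppib and to the left for Plod2, Mia3 and Lox, while in most rows the grey symbols lie near the blue ones.

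Prolyl 4-hydroxylase is a tetramer of catalytic alpha subunits (P4ha1 to P4ha3) and the beta subunit P4hb, which is also protein disulphide isomerase. None of the 4 genes passed the test, and their log2 differences had a median of -0.34 over 8 libraries and -0.11 against isotype 2 and 5. P4hb measured 1022, 2283, 1656 and 906 CPM in isotype 2, 3, 4 and 5 compared with 1001, 906, 893 and 918 CPM in anti-CSF1R 7, 8, 9 and 10. The highest antibody library was 1.121 times the lowest, and isotype 3 and 4 stood above the other 6 libraries. Its log2 difference was -0.66 (SE 0.29, adjusted p = 0.278 by edgeR) with all libraries and -0.06 (95% confidence interval -0.24 to 0.13) against isotype 2 and 5. P4ha1 and P4ha2 had similar mean levels per length in isotype (62.1 and 62.4 CPM per kb of the longest transcript). With the antibody P4ha1 was the higher (57.1 and 42.5), as it already was in isotype 2 and 5, while P4ha2 was the higher in isotype 3 and 4. As a share of P4ha1 to P4ha3 per length, P4ha1 made up 44.7% to 52.4% in isotype 2 and 5, and P4ha2 36.3% to 36.8%. In isotype 3 and 4 these shares were 36.3% to 44.8% and 47.2% to 55.8%. With the antibody they were 47.8% to 51.7% and 34.98% to 38.3%. Over the 8 libraries P4ha2 was the higher if mean transcript length was used (77.3 and 137). P4ha1 measured 285, 211, 296 and 212 CPM in the isotype libraries and 269.6, 215, 221 and 217 CPM in anti-CSF1R, groups that overlapped throughout (-0.12, SE 0.17, adjusted p = 0.612 by edgeR, then -0.11). P4ha2 was 191 ± 58.2 CPM in isotype and 130.04 ± 12.2 CPM with the antibody (n = 4 each), a log2 difference of -0.55 and, against isotype 2 and 5, -0.12. P4ha3 was 36.9 ± 11.04 and 40.2 ± 5.34 CPM (0.12, then -0.15). P4ha3 was highest in isotype 5, at 52.4 CPM, the library whose chondrocyte markers summed to 2924 CPM against 403 to 888 CPM in the other isotype libraries, and the part of those cells in it was not tested.

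Lysyl hydroxylases (Plod1 to Plod3) act on helix and telopeptide lysines, Plod2 being the telopeptide enzyme, and Colgalt1 and Colgalt2 add galactose to hydroxylysine. Plod1 measured 148, 317, 223 and 150.4 CPM in the isotype libraries and 142, 126, 136 and 129 CPM in anti-CSF1R. Every antibody library lay below every isotype library, by a narrow margin from anti-CSF1R 7 to isotype 2. The log2 difference was -0.65 (SE 0.25, adjusted p = 0.278 by edgeR), and against isotype 2 and 5 it was -0.17 (95% confidence interval -0.31 to -0.02, adjusted p = 0.254). Non-overlap of this kind, lower with the antibody, was found for 2 of the 35 genes (5.71%), Plod1 and Pcolce2, and for 8.34% of all genes, while 0 of the 35 and 6.61% of all genes were higher without overlap. Colgalt1, the main galactosyltransferase here, measured 171, 323, 276 and 159.8 CPM in the isotype libraries and 163, 153, 153 and 148 CPM in anti-CSF1R (-0.59, SE 0.24, adjusted p = 0.278 by edgeR, and -0.10 against isotype 2 and 5). Colgalt2 was low in both groups, at 5.30 ± 1.40 and 5.02 ± 0.52 CPM (-0.08, then -0.21).

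Plod3, which also has glycosyltransferase activity, was 132 ± 49.0 CPM in isotype and 84.1 ± 4.52 CPM with the antibody (-0.65, adjusted p = 0.278 by edgeR, then -0.16). Plod2 was low in isotype 3 and 4, where Plod1 and Plod3 were high. It measured 161, 65.5, 46.3 and 167 CPM in the isotype libraries and 165, 153, 168 and 154 CPM in anti-CSF1R. Isotype 2 and 5 and the 4 antibody libraries lay close together, and isotype 3 and 4 far below them. The log2 difference was 0.54 (SE 0.38, adjusted p = 0.346 by edgeR) with all libraries and -0.04 (95% confidence interval -0.19 to 0.10) against isotype 2 and 5. As a share of the 3 lysyl hydroxylases, each per length, Plod2 made up 40.5% to 41.1% in isotype 2 and 5, 11.4% to 11.5% in isotype 3 and 4, and 41.9% to 44.1% with the antibody. The longest Plod2 transcript is among those with a GC content under 45%.

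The prolyl 3-hydroxylases P3h1 to P3h3 modify few prolines per chain. P3h1 works in a complex with Crtap and cyclophilin B (Ppib), which is also a peptidyl-prolyl isomerase, and P3h4 is a non-catalytic relative that acts with lysyl hydroxylase 1. Ppib measured 371, 934, 567 and 309 CPM in the isotype libraries and 355, 339, 321 and 328 CPM in anti-CSF1R, and Crtap 254, 510.4, 404 and 223 against 246, 214, 222 and 227 CPM. P3h1 measured 282, 518, 429 and 230.4 CPM in isotype and 256, 219.9, 226 and 225 CPM in anti-CSF1R. In all 3 subunits of the complex isotype 3 was the highest library and isotype 4 the next. Their log2 differences of -0.70, -0.62 and -0.66 (adjusted p = 0.278 each by edgeR) became -0.02, -0.07 and -0.15 against isotype 2 and 5. P3h3 was 201 ± 62.9 CPM in isotype and 141 ± 6.90 CPM with the antibody, and P3h4 167 ± 74.4 and 108 ± 9.03 CPM. Their differences were -0.51 and -0.63, then -0.09 and 0.0011. P3h2, a scarce member at 13.4 ± 1.71 CPM in isotype and 11.2 ± 1.07 CPM with the antibody, was the exception: it was lower in all 4 antibody libraries than in isotype 2 and 5 (12.7 and 15.7 CPM against 10.95, 10.1, 12.6 and 11.1 CPM), with a log2 difference of -0.35 (95% confidence interval -0.61 to -0.08, adjusted p = 0.184 by edgeR). Isotype 3, at 11.7 CPM, lay among the antibody libraries, and the difference was -0.26 over all 8 libraries (adjusted p = 0.308 by edgeR) and -0.087 with the offset for GC content and length.

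Serpinh1 (HSP47), the collagen-specific chaperone, had the highest level per length of the 35 genes, at 1357 CPM per kb of its longest transcript averaged over the 8 libraries. P4hb (419 CPM per kb) and Pcolce (393 CPM per kb) came next and exchange places if the mean transcript length is used. Serpinh1 measured 2717, 6124, 4415 and 2142 CPM in the isotype libraries and 2586, 2211, 2238 and 2254 CPM in anti-CSF1R. The antibody libraries lay between isotype 5 and isotype 2, and the highest isotype library was 2.86 times the lowest. The log2 difference was -0.73 (SE 0.31, adjusted p = 0.278 by edgeR) over all libraries and -0.07 (95% confidence interval -0.32 to 0.19) against isotype 2 and 5. Fkbp10 (FKBP65), an isomerase needed for telopeptide lysyl hydroxylation, measured 601, 1282, 943 and 545 CPM in the isotype libraries and 628, 542, 549.6 and 561 CPM with the antibody (-0.56, SE 0.27, then -0.01 against isotype 2 and 5). The smaller isomerases Fkbp7 and Fkbp14, whose longest transcripts have a GC content under 45%, did not share that pattern: Fkbp7 was 98.9 ± 21.3 against 100.5 ± 5.70 CPM and Fkbp14 89.7 ± 21.5 against 92.3 ± 6.94 CPM (0.02 and 0.04, then -0.07 and -0.12).

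**Figure D2:**
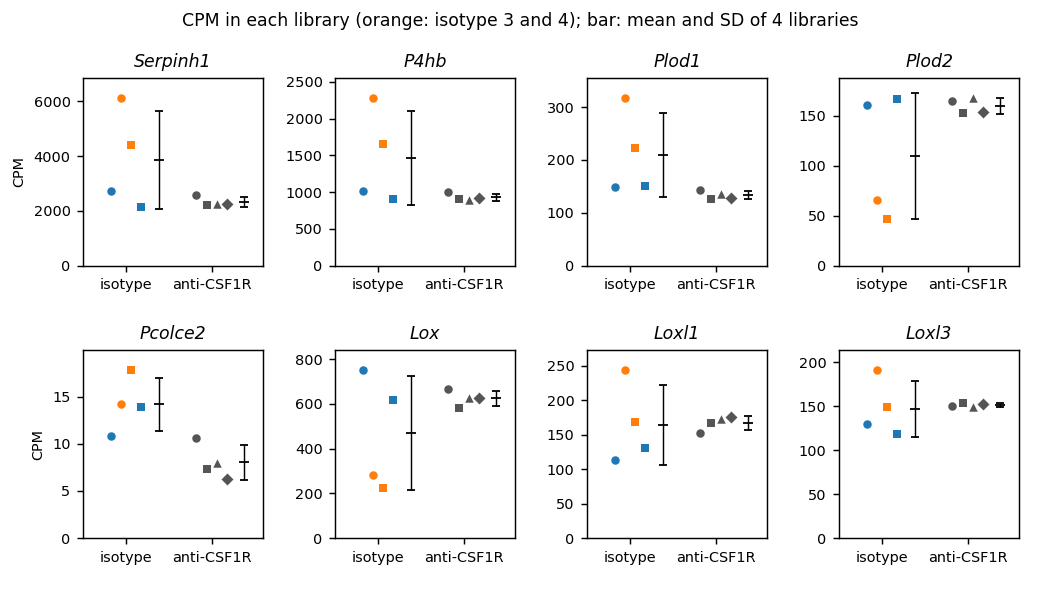
CPM of 8 genes in each library, 1 panel per gene with its own linear axis, isotype libraries on the left and anti-CSF1R libraries on the right, with bars for the group mean and SD. Isotype 3 and 4 are the highest for Serpinh1, P4hb and Plod1 and the lowest for Plod2 and Lox, and for Loxl1 and Loxl3 the 4 antibody libraries lie above isotype 2 and 5.

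Mia3 (TANGO1) loads procollagen into COPII carriers, Creb3l1 (OASIS) is an ER membrane transcription factor of osteoblasts, Tmem38b (TRIC-B) is an ER cation channel and Kdelr2 returns ER proteins, HSP47 among them, from the Golgi. Kdelr2 measured 265, 299.8, 332 and 226 CPM in the isotype libraries and 261, 221, 218 and 236 CPM in anti-CSF1R (-0.26, SE 0.16, adjusted p = 0.311 by edgeR, then -0.07). Creb3l1 measured 236, 399.8, 330.1 and 218 CPM in the isotype libraries and 219, 181, 206 and 223 CPM with the antibody (-0.51, SE 0.21, adjusted p = 0.278, then -0.13). Both were highest in isotype 3 and 4. Mia3 was instead at 71.3 and 57.9 CPM in isotype 3 and 4, against 179.6 and 162 CPM in isotype 2 and 5 and 165 to 179 CPM with the antibody, and its difference of 0.54 (adjusted p = 0.323 by edgeR) was -0.0039 (95% confidence interval -0.15 to 0.15) against isotype 2 and 5. Tmem38b was scarce, at 9.17 ± 1.22 and 8.24 ± 1.01 CPM, and like P3h2 was lower in all 4 antibody libraries than in isotype 2 and 5 (-0.30, 95% confidence interval -0.59 to -0.01, adjusted p = 0.310 by edgeR). Isotype 3 and 4, at 8.51 and 7.89 CPM, lay among the antibody libraries, and the difference over all 8 was -0.16 (adjusted p = 0.508 by edgeR). With the offset for GC content and length it was -0.66 (95% confidence interval -1.09 to -0.22, adjusted p = 0.118 by edgeR). Against isotype 2 and 5, 4 of the 35 genes were lower without overlap (11.4%, against 12.8% of all genes), namely P3h2, Tmem38b, Plod1 and Pcolce2, and 3 were higher (8.57%, against 11.2%), Bmp1, Loxl1 and Loxl3.

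Outside the cell Adamts2, Adamts3 and Adamts14 remove the amino-propeptides, Bmp1 and Tll1 the carboxy-propeptides, and Pcolce and Pcolce2 enhance the latter step. Pcolce measured 954, 1869, 1402 and 699 CPM in the isotype libraries and 841, 741, 765 and 814 CPM in anti-CSF1R (-0.64, SE 0.28, then -0.07 against isotype 2 and 5). Bmp1 measured 942, 1583, 1205 and 857 CPM in the isotype libraries and 992, 960.3, 1031 and 1106 CPM in anti-CSF1R. Its antibody libraries were all above isotype 2 and 5 and all below isotype 3 and 4, so the sign of the difference turned with the controls, from -0.17 (SE 0.21, adjusted p = 0.571 by edgeR) to 0.18 (95% confidence interval -0.01 to 0.37, adjusted p = 0.361). Bmp1 made up 99.6% to 99.9% of the summed level per length of Bmp1 and Tll1 in every library. Adamts2, Adamts3 and Adamts14 were 429 ± 75.0, 20.4 ± 8.31 and 176 ± 13.8 CPM in isotype and 386 ± 5.38, 29.5 ± 1.01 and 179 ± 13.8 CPM with the antibody, and Adamts3 was at 13.9 CPM in both isotype 3 and isotype 4. Their differences were -0.15, 0.53 and 0.03, then 0.07, 0.13 and -0.02 against isotype 2 and 5. Tll1 was the scarcest gene of the 35 per length, at 2.09 ± 1.11 and 2.53 ± 0.47 CPM (0.27, then -0.25).

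Pcolce2 was the gene with the largest difference among the 35. It measured 10.9, 14.2, 17.8 and 13.9 CPM in isotype 2, 3, 4 and 5 compared with 10.6, 7.29, 7.99 and 6.24 CPM in anti-CSF1R 7, 8, 9 and 10. The groups did not overlap, though isotype 2 and anti-CSF1R 7 nearly met. The log2 difference was -0.82 (SE 0.22, 95% confidence interval -1.31 to -0.33), and its adjusted p of 0.156 in edgeR ranged from 0.0118 to 0.430 over 17 alternatives, of which DESeq2 passed the threshold (-0.85, adjusted p = 0.0118). Against isotype 2 and 5 the difference was -0.62 (adjusted p = 0.171 by edgeR), and leaving out each library in turn from the full set gave -0.98 to -0.70. It passed against isotype 2 and 5 when anti-CSF1R 7 was also left out (-0.79, adjusted p = 0.0352 by edgeR), and in 1 of 6 such cases in all (-0.79 to -0.43, adjusted p 0.0352 to 0.446). Pcolce2 was at most 1.14% of the summed level per length of both enhancers. With the offset for GC content and length its difference was -1.19 (adjusted p = 0.0652 by edgeR). All 8 markers of osteoclasts and all 8 of macrophages were also lower in the antibody libraries without overlap. Of chondrocytes 7 of 7 were lower by their fitted difference (median -1.53, 2 without overlap and 0 past the threshold). Fibroblast markers were split. By fitted difference 4 of 7 were lower (3 without overlap, 0 past the threshold, Dpt at 23.9 to 36.0 CPM against 11.4 to 21.9 CPM) and 3 were higher. The fibroblast sum was 1100 to 3093 CPM in isotype and 2714 to 2800 CPM with the antibody. The part of these cell types in the Pcolce2 difference was not tested.

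Lysyl oxidases (Lox and Loxl1 to Loxl4) are copper enzymes that oxidise lysine and hydroxylysine to start crosslinks. Lox measured 749, 283, 224 and 616 CPM in the isotype libraries and 664, 583, 625 and 625 CPM in anti-CSF1R, with the antibody libraries between isotype 5 and isotype 2 except anti-CSF1R 8, which lay just below isotype 5. Its log2 difference of 0.42 (SE 0.36, adjusted p = 0.415 by edgeR) was -0.13 (95% confidence interval -0.34 to 0.08) against isotype 2 and 5. Lox made up 47.1% to 52.8% of the summed lysyl oxidase level per length in isotype 2 and 5, 21.1% to 23.5% in isotype 3 and 4 and 43.7% to 47.1% with the antibody. Loxl2 measured 168, 185, 242 and 209.9 CPM against 168, 167, 178 and 182 CPM with the antibody, groups that overlapped (-0.21, adjusted p = 0.345 by edgeR, then -0.12). Loxl4 was 154 ± 11.4 and 149 ± 7.30 CPM (-0.04, adjusted p = 0.821 by edgeR, then -0.03).

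Loxl1, which acts on elastic as well as collagen fibres, and Loxl3 were the 2 genes that passed the threshold against isotype 2 and 5, both higher. Loxl1 measured 113, 243, 168 and 131 CPM in the isotype libraries and 153, 167, 172 and 176 CPM in anti-CSF1R. The antibody libraries were all above isotype 2 and 5, while isotype 3 was the highest of all 8. The log2 difference was 0.45 (SE 0.08, 95% confidence interval 0.27 to 0.63, adjusted p = 0.0180 by edgeR) with those 2 controls and 0.03 (SE 0.23, adjusted p = 0.935) with all 4. Loxl3 measured 130.1, 191, 149 and 118 CPM in the isotype libraries and 150.3, 154, 149 and 153 CPM in anti-CSF1R, with differences of 0.28 (SE 0.06, adjusted p = 0.0397) and 0.04 (adjusted p = 0.863). These calls rest on 2 control libraries that were chosen from these same counts, and Loxl3 shares exon bases with Htra2 on the opposite strand. When 1 of the 6 libraries was left out, Loxl1 stayed past the threshold in 3 of 6 cases (adjusted p 0.0166 to 0.0755, lost without isotype 2, anti-CSF1R 8 or anti-CSF1R 9) and Loxl3 in 1 of 6 (0.0263 to 0.136, kept without isotype 2). With the offset for GC content and length over all 8 libraries they were 0.37 (adjusted p = 0.135) and 0.22 (adjusted p = 0.229). Endothelial markers, 5 genes, summed to 459 to 470 CPM in isotype 2 and 5 and to 524 to 605 CPM with the antibody, and their part in these differences was not tested.

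**Figure D3:**
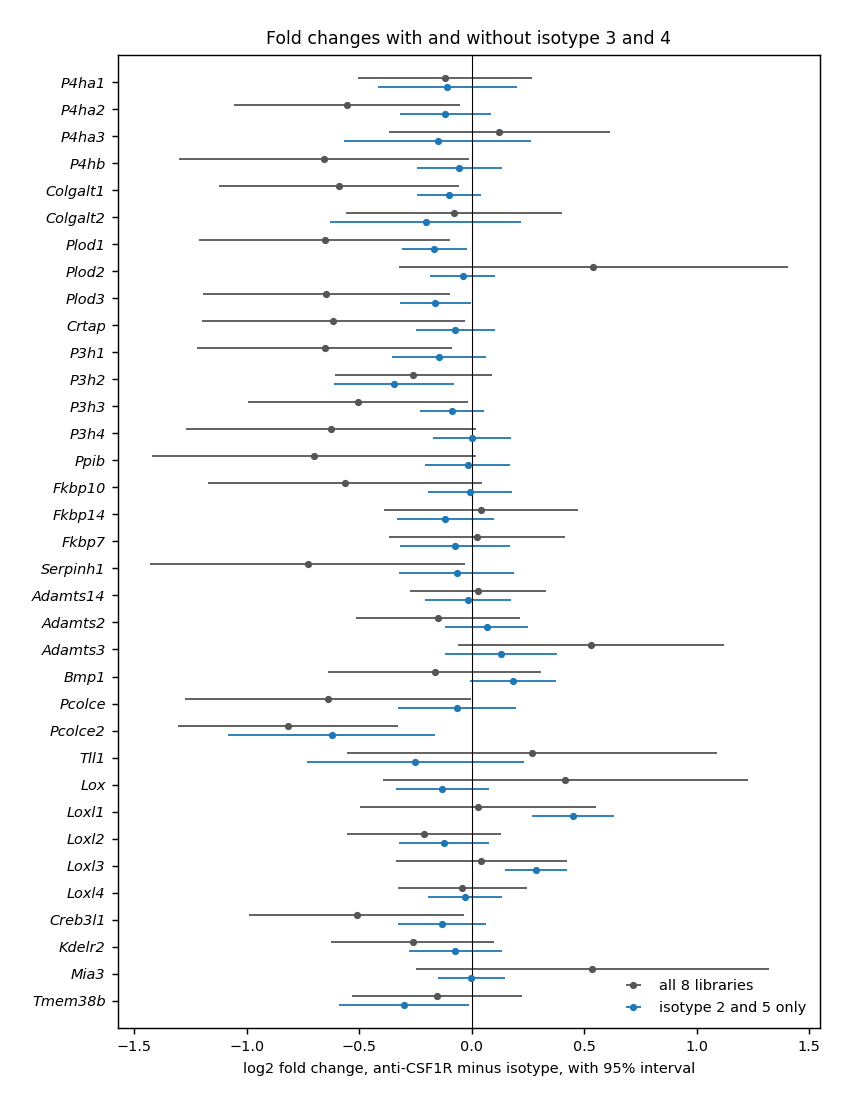
Log2 difference (anti-CSF1R minus isotype) of each of the 35 genes with its 95% confidence interval, once with all 8 libraries and once with isotype 2 and 5 as the only controls. The first set runs from -0.82 to 0.54 with wide intervals, and the second lies close to 0 with intervals within 1 log2 unit for 34 genes. In the second set the whole intervals of Loxl1 and Loxl3 lie above 0, and those of Plod1, Plod3, P3h2, Pcolce2 and Tmem38b below 0.

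The spread among isotype libraries followed base composition in the members as in other genes. The 5 genes with a transcript GC content under 45% (Plod2, Fkbp7, Fkbp14, Lox and Tmem38b) had a median log2 difference of -0.38 between isotype 3 and 4 and isotype 2 and 5, against -1.23 for all genes of that class. The 12 genes at 50% to 55% had a median of 0.60 (all genes 0.32) and the 10 at 55% to 60% a median of 0.85 (all genes 0.56). After the offset for GC content and length 25 of the 35 genes (71.4%, against 51.2% of all genes) were higher in isotype 3 and 4 and 10 were lower, among them P4ha3 (-1.10), Adamts3 (-0.97), Mia3 (-0.88), Tll1 (-0.73) and Plod2 (-0.63). The medians were then 0.42 and 0.35 for the members of these last 2 classes (all genes 0.08 each), and the median of the class under 45% turned to 0.44 (all genes -0.12). The summed osteoclast markers were also higher in isotype 3 and 4, at 10193 to 13239 CPM against 5557 to 5968 CPM in isotype 2 and 5, as were 6 of the 8 genes. So were the summed macrophage markers, at 723 to 939 CPM against 436 to 463 CPM, and 6 of their 8 genes. Osteoblast markers summed to less, at 6873 to 7189 CPM against 8434 to 8472 CPM, though 5 of the 9 genes were higher in isotype 3 and 4. The summed fibroblast markers were lower, at 1100 to 1119 CPM against 2391 to 3093 CPM, but that sum is mostly Lum and Dcn, and 4 of the 7 genes were higher in isotype 3 and 4. The part of these cells in the members' difference was not tested.

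**Figure D4:**
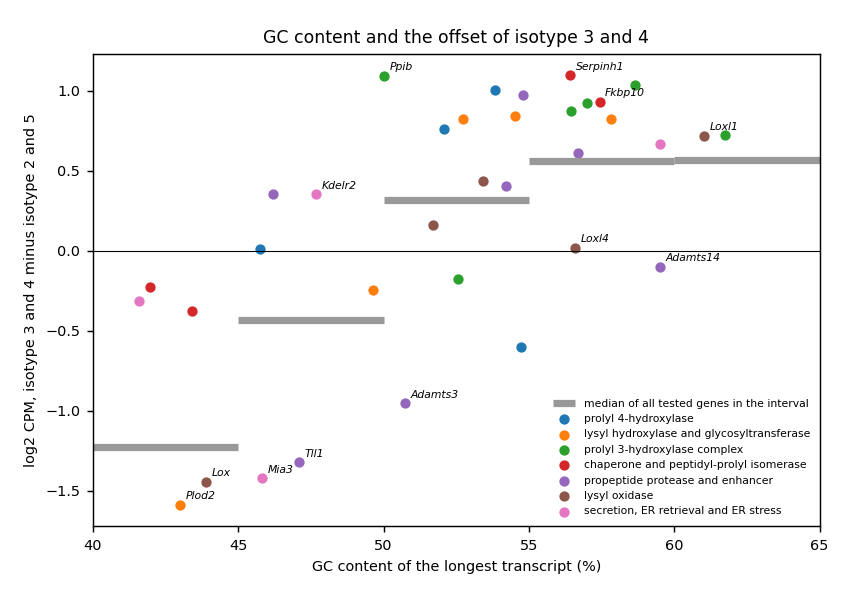
GC content of the longest annotated transcript (per cent, horizontal) against the log2 difference in CPM between isotype 3 and 4 and isotype 2 and 5 (vertical), with 1 point per member and grey bars for the median of all tested genes in each GC interval. The members' differences are larger at higher GC content, as in other genes, from a median of -0.38 under 45% to 0.85 at 55% to 60%, and the members' median lies above the bar in each interval.

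The main substrate, type I collagen, did not pass the test either. Col1a1 was 121489 ± 29920 CPM in isotype and 83996 ± 7761 CPM with the antibody (-0.53, adjusted p = 0.278 by edgeR, and -0.21, adjusted p = 0.570, against isotype 2 and 5), and Col1a2 differed by -0.48 (adjusted p = 0.278), then -0.18 (adjusted p = 0.659). Both genes together took 17.4% to 26.8% of all counts in isotype and 15.8% to 18.3% with the antibody, shares taken without the TMM scaling of the CPM. Per unit of type I collagen RNA, 4 of the 35 genes (Adamts2, Adamts3, Loxl3 and Loxl4, 11.4%) were higher in every antibody library than in every isotype library, against 14.2% of all genes, and 0 were lower (all genes 1.54%).

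Among the pathway's other genes none passed the threshold in edgeR with all 8 libraries. Of 11 fibrillar collagen chains 3 had an unadjusted p under 0.05, all lower, and the 11 had a median log2 difference of -0.33, then -0.19. The smallest p was that of Col2a1, the cartilage collagen, at 749 ± 812 against 94.9 ± 69.3 CPM (-2.98, adjusted p = 0.199 by edgeR and 0.0326 by DESeq2, then -3.51 with 0.328 by edgeR), and it was highest in isotype 5, where the chondrocyte markers, of which it is one, had their highest sum. Col5a1, which nucleates type I fibrils, was 2952 ± 623 against 2134 ± 127 CPM (-0.47, adjusted p = 0.278 by edgeR, then -0.19). Of 14 general ER folding and retrieval genes 2 were lower at an unadjusted p under 0.05, Kdelr1 (-0.66, then -0.10) and Sdf2l1 (-0.56, then -0.12), both with an adjusted p of 0.278 by edgeR over all 8 libraries, and the median was -0.14, then 0.0084. Of 18 export genes 0 were under that level, with a median of 0.18, then -0.014, and the smallest p belonged to Sec13 (-0.56, then -0.05) and Suco (0.78, then 0.14, with 12.6 and 7.99 CPM in isotype 3 and 4 against 34.9 to 41.4 CPM in the other 6 libraries). Of 13 genes of extracellular assembly and cofactor supply 12 could be tested, 3 were lower and 1 higher at that level, with a median of 0.03, then -0.0074. The smallest p belonged to Fmod (-0.67, adjusted p = 0.262 by edgeR, then -0.46) and Slc39a13, a zinc transporter of the ER and Golgi (-0.44, adjusted p = 0.275 by edgeR, then -0.22). Against isotype 2 and 5 none of the genes on these 4 lists passed the threshold either. The nearest collagen chain was Col11a1 (-0.48, adjusted p = 0.0516 by edgeR, and -0.01 over all 8 libraries). Of the 11 chains, 4 were lower at an unadjusted p under 0.05 there (all genes 8.71%). Lower without overlap were 5 against isotype 2 and 5 (all genes 12.8%) and 3 over all 8 libraries (all genes 8.34%), Col3a1 in both (-0.33, then -0.29).

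Of the 35 genes, 5 share more than 10% of their exon bases with another gene in the GENCODE M21 annotation, in each case with at least 1 gene on the opposite strand: Colgalt1 with Unc13a (11.4%), Loxl3 with Htra2 (11.6%), Plod3 with Znhit1 and the microRNA gene Mir702 (11.9%), Ppib with Snx22 (24.96%) and P3h2 with Gm4524 (28.4%). Because the strand setting of the counting step is not known from the labels, reads of the partner gene cannot be told apart from those of these 5 genes.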

How the data were processed

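The counts are whole-number reads per gene symbol, deposited by the authors as 1 table of 27133 genes (5009 with no count in any library) for 8 poly(A) RNA libraries. Libraries were made with the TruSeq Stranded mRNA kit from 1 µg of RNA and sequenced in pairs of 101 bp on a NovaSeq, per the labels' protocols. The submitters' processing notes name STAR 2.7.10b, featureCounts 1.6.3 and the builds GRCm38 and GRCm39, without saying which build the table uses, and the annotation, strand and multi-mapping settings are not known here. Between 82.8% and 84.7% of counts from 1 to 10 were even, as when both mates are counted, which makes counting noise larger than for independent counts. A detection floor of 3 counts lies at 0.0434 to 0.0522 CPM, for counting error alone.

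Groups follow the labels. Genes kept by filterByExpr were fitted over all 8 libraries in edgeR 4.0.16 (R 4.3.3) with TMM factors, robust dispersions and the two-sided quasi-likelihood test, adjusted by Benjamini-Hochberg over 17028 genes, threshold 0.05. CPM uses TMM library sizes. Levels per kb use the longest GENCODE M21 transcript. The alternatives were DESeq2 1.42.0, limma-voom (limma 3.58.1), RLE size factors, library size without factors, no filter, a filter of 1 CPM in 4 libraries, isotype 2 and 5 as the only controls, an offset for GC content and length, halved counts, and leaving out each library. Leaving out each of the 6 libraries with isotype 2 and 5 as controls was chosen after seeing the data. The 35 genes and all other lists were chosen with earlier results of these data known. Values in every library are given for genes past the threshold with all libraries or with isotype 2 and 5, for genes whose groups did not overlap, and for the 2 most abundant of each role. Of the pathway's other genes those past the threshold, or else the 2 of each list with the smallest p, are named. On data simulated for this comparison (16852 genes), the test recovered 27.6% of 98 genes changed by 1 log2 unit and 85.7% of 98 changed by 2, with 5 false calls. No pair of libraries of 1 group was a copy: the median squared difference over genes with high counts was at least 4.23 times counting noise. That noise is the one for independent counts, which counting both mates would make larger.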

Additional observations from a re-analysis of the deposited data

Results flagged for a closer look

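In 4 of the 70 gene-by-group sets of 4 libraries examined, a single library lay farther from the others than Dixon's 95% critical value (gap to the nearest library over the whole range), where chance gives about 1 in 20. All 4 were anti-CSF1R 7 as the highest antibody library, with ratios of 0.889 for P4ha1, 0.833 for P3h1, 0.836 for P3h4 and 0.884 for Serpinh1. P4ha1 was at 269.6 CPM there against 215 to 221 CPM in the other 3 antibody libraries, and Serpinh1 at 2586 CPM against 2211 to 2254 CPM.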

How the results depend on the processing

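With 0 members called over all 8 libraries, 15 of the 17 alternatives also gave 0. DESeq2 gave 1 (Pcolce2, -0.85) and isotype 2 and 5 as the only controls gave 2 (Loxl1 0.45, Loxl3 0.28), which became 0 to 2 when 1 of those 6 libraries was left out. Of 595 member values under these alternatives 554 kept their direction and side of the threshold, 3 passed it and 38, in 16 members, changed sign, 0 of them with an adjusted p under 0.05. Over all genes 144 calls became 777 with DESeq2, 463 with the GC and length offset and 536 with isotype 2 and 5 only, and ran from 0 (without anti-CSF1R 7 or 8) to 260 (without isotype 2) when 1 library was left out. The pathway's other genes went from 0 to 1 call with DESeq2 (Col2a1) and ran from 0 to 1 with a library left out (Fmod, without isotype 2). The causes were not tested.

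Sign changes with isotype 2 and 5 only were P4ha3 -0.15, Plod2 -0.041, P3h4 0.0011, Fkbp7 -0.074, Fkbp14 -0.12, Adamts2 0.065, Adamts14 -0.018, Bmp1 0.18, Tll1 -0.25, Lox -0.13 and Mia3 -0.0039. With library size alone, which moved the median of all genes from 0.03 to 0.19, they were P4ha1 0.037, Colgalt2 0.059, Adamts2 0.026, Bmp1 0.023 and Loxl4 0.12. With the offset they were Fkbp7 -0.33, Fkbp14 -0.36 and Loxl4 0.18. RLE size factors and DESeq2 each gave Fkbp7 -0.0071, Adamts14 -0.0025 and Loxl1 -0.014. Leaving out 1 library gave Fkbp7 -0.10 to 0.10, Fkbp14 -0.11 to 0.13, Colgalt2 -0.19 to 0.094, Adamts14 -0.017 to 0.081, Bmp1 -0.28 to 0.030, Loxl1 -0.15 to 0.28 and Loxl3 -0.050 to 0.19. No paired analysis was possible because the groups share no replicate numbers. With mean in place of longest transcript length, 29 of 35 levels per kb moved by more than 1 SD. What the depth limits was not resolved: halving the counts left 0 members called, as with the full counts, and over all 8 libraries 17 of 35 confidence intervals lay within 1 log2 unit of 0.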
